A study of Homo sapiens with 11 samples.

Results

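Actomyosin contractility is described here through 10 genes: the DAP kinases DAPK1, DAPK2 and DAPK3, the kinases ROCK1 and ROCK2, myosin light chain kinase MYLK, the regulatory light chains MYL9, MYL12A and MYL12B, and the myosin phosphatase subunit PPP1R12A. DAPK3 was chosen by its difference between WT and mH2A1.1 KD cells in these same libraries, and the others were chosen as its relatives and substrates. They are 10 of the 23167 genes in the count tables, and all 10 were among the 10963 genes tested. Because the WT to KD contrast chose the genes, their differences are given as a description. Calls from fits across all genes are printed only beside the share of all genes called, and they support nothing about the 10 genes.

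Non-muscle myosin II pulls on actin filaments once its regulatory light chain is phosphorylated. MYLK adds this phosphate in response to calcium and calmodulin, whereas ROCK1 and ROCK2 do so downstream of small GTPases and also inhibit the myosin phosphatase, which removes it. DAPK3, also called ZIP kinase, phosphorylates both the light chain and PPP1R12A, the subunit that targets the phosphatase to myosin. DAPK1 and DAPK2 are calmodulin-regulated relatives known for roles in cell death and autophagy.

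MDA-MB-231 is an established human triple-negative breast cancer cell line with a mesenchymal, migratory character. RNA-seq covered 2 libraries of WT cells, which received the transfection reagent without siRNA, and 2 libraries of mH2A1.1 KD cells, which received siRNA against mH2A1.1 at 11 nM, all collected on day 3. The macroH2A1.1 isoform (mH2A1.1) is a splice form of the histone variant macroH2A1. ChIP-seq of WT cells gave 1 peak list for mH2A1.1 and 1 for total mH2A1. An effect of transfected siRNA as such and one of mH2A1.1 loss cannot be told apart in this design, and fewer cells of a type and less RNA per cell cannot be told apart in bulk RNA. No source used here says that the replicates were separate cultures, so p-values measure only the spread between these libraries.

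WT replicate 1 was the deepest library, at 9794674 counts on genes, followed by WT replicate 2 at 7856892, KD replicate 1 at 5584962 and KD replicate 2 at 2309549. The paper also lists KD replicate 2 with the lowest share of uniquely mapped reads of the RNA-seq libraries. Log2 CPM correlated at 0.994 between the WT libraries and at 0.959 between the KD libraries. The table of KD replicate 2 held 30 counts on chromosomes 21, 22 and X together, 0.0013% of its total against 6.23% to 6.57% in the other 3 libraries, and genes of these chromosomes were left out of the tests. None of the 10 genes lies there. MACROH2A1, the targeted gene, had 385 and 394 CPM (counts scaled to a common library size) in WT and 274 and 300 in KD, both KD libraries lying below both WT libraries, with a log2 fold change of -0.44 (SE 0.17, n = 2 per group). The gene total does not separate the mH2A1.1 splice form from the other. Of the markers of the line, VIM lay between 2315 and 4726 CPM, and CD44, AXL and CAV1 were also abundant, whereas SPARC had between 2 and 8 counts in each library. ESR1 and PGR, which define luminal cells, were at 0 in all 4 libraries, while luminal KRT8 ranged from 496 to 1364 CPM and was higher in both KD libraries. GATA3, also luminal, had 18.3 and 18.5 CPM in WT and 17.8 and 24.6 in KD, so the groups overlapped. CDH1 rests on 22 and 19 counts in WT and 2 and 5 in KD, with 2.31 CPM in WT replicate 1, 0.378 in KD replicate 1 and 2.36 in KD replicate 2. The summed level of the luminal markers was 517 and 576 CPM in WT and 880 and 1391 in KD, nearly all of it KRT8, and the part of these markers in the results was not tested. The blood marker HBB was at 0. The summed level of the measured smooth muscle markers, the other cell type known for MYLK and MYL9, was 2.65 to 4.73 CPM.

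Upstream sequence is shown for DAPK3, the gene on which the set turns, and for ROCK1 and MYL12A, whose starts lie under an mH2A1.1 peak. The starts of MYLK and MYL9 lie under one too and are not shown. MYL9 had no RefSeq start on record, and that of MYLK lies 263784 bp inside the gene. Each run holds the 250 bases before the RefSeq start (GRCh38.p14), written 5′ to 3′ on the strand of the gene. Capitals mark GC boxes, letters GGGCGG, and CCAAT boxes, each sought on both strands. DAPK3 is on the minus strand at chr19:3971100-3971349, ROCK1 on the minus strand at chr18:21111814-21112063 and MYL12A on the plus strand at chr18:3247232-3247481.
DAPK3: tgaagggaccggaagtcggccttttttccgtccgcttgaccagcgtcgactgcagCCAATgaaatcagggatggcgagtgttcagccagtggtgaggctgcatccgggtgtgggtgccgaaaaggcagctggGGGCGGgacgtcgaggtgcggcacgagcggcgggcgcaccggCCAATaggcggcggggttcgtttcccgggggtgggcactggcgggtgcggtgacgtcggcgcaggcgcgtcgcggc
ROCK1: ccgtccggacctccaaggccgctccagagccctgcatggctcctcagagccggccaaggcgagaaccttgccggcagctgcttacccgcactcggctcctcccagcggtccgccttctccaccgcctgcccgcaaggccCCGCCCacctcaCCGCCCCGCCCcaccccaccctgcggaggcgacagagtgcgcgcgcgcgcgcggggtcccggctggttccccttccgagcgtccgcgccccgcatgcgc
MYL12A: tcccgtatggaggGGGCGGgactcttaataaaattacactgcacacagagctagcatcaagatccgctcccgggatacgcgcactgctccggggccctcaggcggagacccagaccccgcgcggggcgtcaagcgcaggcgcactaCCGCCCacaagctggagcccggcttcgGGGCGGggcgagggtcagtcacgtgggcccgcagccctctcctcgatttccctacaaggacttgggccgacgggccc

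The DAPK3 run held 1 GC box and 2 CCAAT boxes, and those of ROCK1 and MYL12A held 3 GC boxes each, with an overlap of neighbouring boxes in ROCK1. Among 35114 RefSeq upstream runs of this length, 42.6% held a GC box and 32.0% a CCAAT box. Their GC contents of 68.8%, 75.6% and 67.2% and their 31, 31 and 24 CpG dinucleotides stood above the medians of all runs, 58.0% and 11. RefSeq runs were matched for 9 of the 10 genes. A TATA box (TATAAA, in 10.7% of all runs) and a CArG box, the motif bound by serum response factor (in 1.16% of all runs), were found in the runs of ROCK2 and MYLK and in none of the other 7. The RefSeq start used for ROCK2 lies 2893 bp from the annotated gene start, that of DAPK2 25548 bp from it and that of MYLK 263784 bp inside the gene. Those of DAPK1 and MYL12B lie 639 and 654 bp away. The windows of these genes thus do not describe the gene starts to which peaks are compared here. A match of letters describes the sequence and says nothing of binding.

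The DAP kinases were dominated by DAPK3. DAPK3 (ENSG00000167657, chr19:3958453-3971123, minus strand) had 44.1 and 44.1 CPM in WT replicates 1 and 2 and 72.9 and 147 in KD replicates 1 and 2. Both KD libraries lay above both WT libraries, and the 2 KD libraries were further from each other than KD replicate 1 was from WT. The fitted log2 fold change was 1.30 (SE 0.32, n = 2 per group), a fold of 2.46. It was 0.73 without KD replicate 2 and 1.73 without KD replicate 1. A share of 99.3% of all tested genes had a lower log2 fold change than DAPK3, a high rank that follows from its choice by this same contrast. DAPK3 has no overlapping gene on the opposite strand that was counted, and 0% of the 50-base stretches of its longest coding transcript occur in transcripts of other genes.

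DAPK1 (ENSG00000196730, chr9:87497228-87708634, plus strand), a calmodulin-dependent death kinase, had 16.0 and 15.1 CPM in WT and 16.2 and 26.5 in KD. KD replicate 1 lay close to WT and KD replicate 2 lay above, and the log2 fold change was 0.40 (SE 0.28). DAPK2 (ENSG00000035664, chr15:63907036-64072033, minus strand), its close relative, had 5.47 and 5.52 CPM in WT and 3.40 and 5.67 in KD. These values rest on 52, 42, 18 and 12 counts, the groups overlapped, and the exact Poisson 95% interval of KD replicate 2 ran from 2.93 to 9.91 CPM, which covers all 4 values. The log2 fold change of DAPK2 was -0.40 (SE 0.34), turning to 0.04 without KD replicate 1. Intervals cover counting error only.

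**Figure D1:**
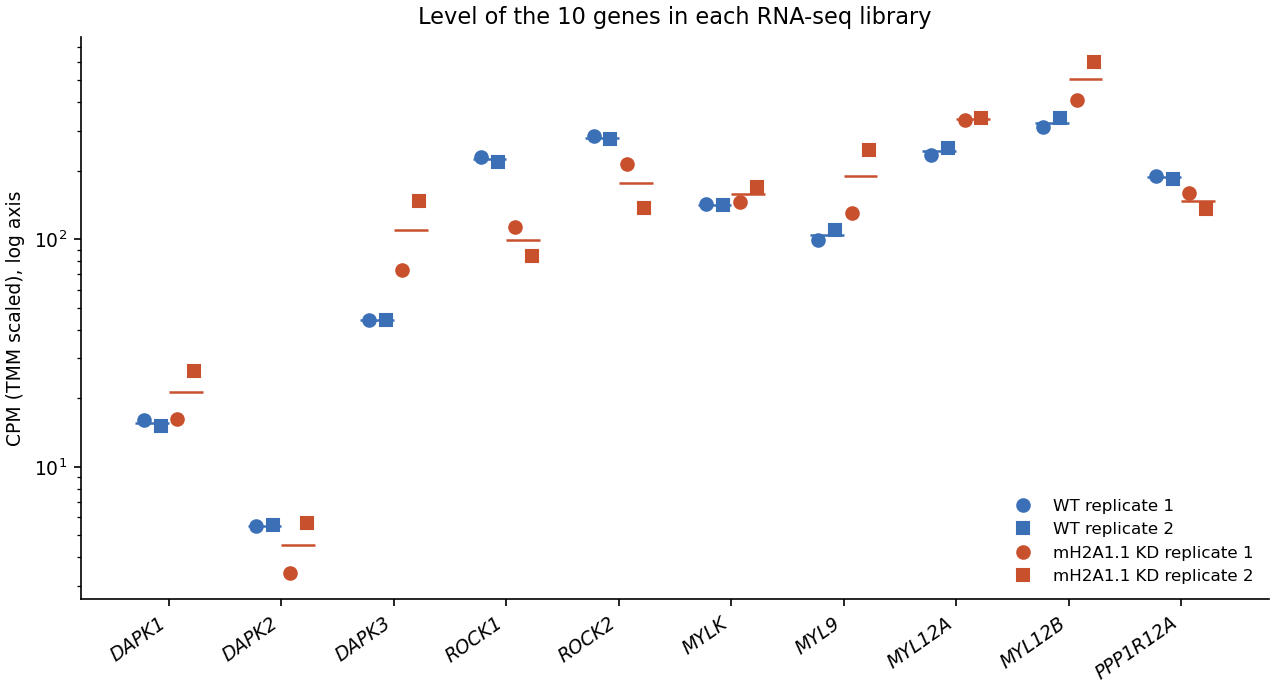
Level of each of the 10 genes in CPM (log axis) in the 2 WT (blue) and 2 mH2A1.1 KD (red) libraries, with circles for replicate 1, squares for replicate 2 and lines at the group means. DAPK3 stands at 44.1 in both WT libraries and at 72.9 and 147 in KD, ROCK1 is lower in both KD libraries, and only DAPK2 has overlapping groups.

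Both ROCK genes were lower in KD. ROCK1 (ENSG00000067900, chr18:20944612-21111813, minus strand) had 231 and 219 CPM in WT and 113 and 84.1 in KD. Both KD libraries lay far below WT, and the log2 fold change was -1.18 (SE 0.21), a ratio to WT of 0.442. Without KD replicate 1 it was -1.43 and without KD replicate 2 it was -0.98. A share of 14.5% of the 50-base stretches of its longest coding transcript also occurs in other genes, most of it in the pseudogene ROCK1P1, so reads from these stretches may have been lost or split in counting.

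ROCK2 (ENSG00000134318, chr2:11179759-11348330, minus strand), with overlapping substrates, had 283 and 275 CPM in WT and 214 and 138 in KD. The groups did not overlap, but the gap between the 2 KD libraries exceeded the gap from WT to KD replicate 1. The log2 fold change was -0.66 (SE 0.24), moving to -0.38 without KD replicate 2 and to -1.03 without KD replicate 1. ROCK1 thus stood at 0.504 and 0.374 of the WT mean in KD replicates 1 and 2, and ROCK2 at 0.768 and 0.492.

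Among the light chains and their calcium-dependent kinase, MYL9 had the largest fitted log2 fold change, a lead that rests on KD replicate 2. In KD replicate 1 MYL9 stood at 1.25 times the WT mean, beside 1.26 for MYL12B and 1.38 for MYL12A. With the trend of GC content and length removed, MYL9 was at 0.33, below MYL12B at 0.48 and MYL12A at 0.61. MYL9 (ENSG00000101335, chr20:36541497-36551447, plus strand), the regulatory light chain abundant in smooth muscle, had 99.4 and 109 CPM in WT and 131 and 247 in KD. Both KD libraries were higher, KD replicate 2 by far the more, and the log2 fold change was 0.84 (SE 0.30), with 0.33 without KD replicate 2 and 1.24 without KD replicate 1. MYLK (ENSG00000065534, chr3:123610049-123884332, minus strand) had 143 and 141 CPM in WT and 146 and 170 in KD, a log2 fold change of 0.15 (SE 0.18). The MYLK libraries were thus separated by little, and an antisense gene within it, MYLK-AS1, had 9 to 17 counts per library. DLGAP4-AS1, antisense to MYL9, had 8 to 19.

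MYL12A and MYL12B, the regulatory light chains of non-muscle cells, are neighbours on the plus strand of chromosome 18, separated by 5242 bp. MYL12A (ENSG00000101608, chr18:3247481-3256236) had 236 and 251 CPM in WT and 335 and 341 in KD. Of the 10 genes it had the 2 KD libraries in closest accord, at 1.38 and 1.40 times the WT mean, with a log2 fold change of 0.47 (SE 0.17). MYL12B (ENSG00000118680, chr18:3261479-3278461) had 310 and 340 CPM in WT and 410 and 599 in KD, a log2 fold change of 0.63 (SE 0.23). Both were higher in both KD libraries, and the values of either are uncertain in part because 11.6% of the 50-base stretches of MYL12A and 9.42% of those of MYL12B occur in other genes, mostly in each other.

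PPP1R12A (ENSG00000058272, chr12:79773563-79935460, minus strand), the targeting subunit of myosin phosphatase, had 189 and 185 CPM in WT and 159 and 136 in KD. Both KD libraries were lower, by a log2 fold change of -0.34 (SE 0.18). With the trend of GC content and length removed the value was 0.23 (SE 0.13), so its direction depends on that choice.

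Genes were called where the adjusted p was below 0.1 and the fold exceeded 1.5. The edgeR quasi-likelihood test called none of the 10 genes and 0% of the 10963 genes tested, although 1290 genes were higher and 1250 lower at an unadjusted p under 0.05. DESeq2, run without that filter on the 15068 genes with any count, of which 7642 received an adjusted p, called DAPK3 and MYL9 higher and ROCK1 lower, beside 5.59% and 5.86% of all genes with an adjusted p called higher and lower. Both KD libraries lay above both WT libraries for 6 of the 10 genes and below for 3, beside 32.5% and 32.4% of all genes tested. These shares are background only, and nothing is read from the counts of the chosen genes.

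Fold changes moved with base composition across the whole transcriptome, and the 10 genes span that range. Among genes tested, sorted into 5 equal classes by the GC content of their exons, the median log2 fold change was -0.47 in the lowest class and 0.47 in the highest. The trend was wider in KD replicate 2, from -0.79 to 0.73, than in KD replicate 1, from -0.25 to 0.18, each against the WT mean. DAPK3, at 64.7% GC, and MYL9, at 60.4%, belong to the highest class, and ROCK1, ROCK2 and PPP1R12A, at 39.4%, 38.4% and 36.7%, to the lowest. The 5 others lie between, from 44.5% for MYL12A to 50.5% for DAPK1 and DAPK2.

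With each library's smooth trend with GC content and exon length removed, DAPK3 had a log2 fold change of 0.71 (SE 0.14) and ROCK1 one of -0.78 (SE 0.10). At these values 97.2% of tested genes lay below DAPK3 and 3.19% below ROCK1. MYL9 moved from 0.84 to 0.33 (SE 0.13) and ROCK2 from -0.66 to -0.20 (SE 0.11), whereas MYL12A moved from 0.47 to 0.61 (SE 0.12). MYL12B was at 0.48 (SE 0.15), DAPK1 at 0.19 (SE 0.20), DAPK2 at -0.58 (SE 0.30) and MYLK at -0.02 (SE 0.10). In this corrected edgeR fit DAPK3 and MYL12A were called higher, beside 2.17% of all genes tested, and ROCK1 lower, beside 3.17%. The part of base composition in the uncorrected differences was not tested.

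**Figure D2:**
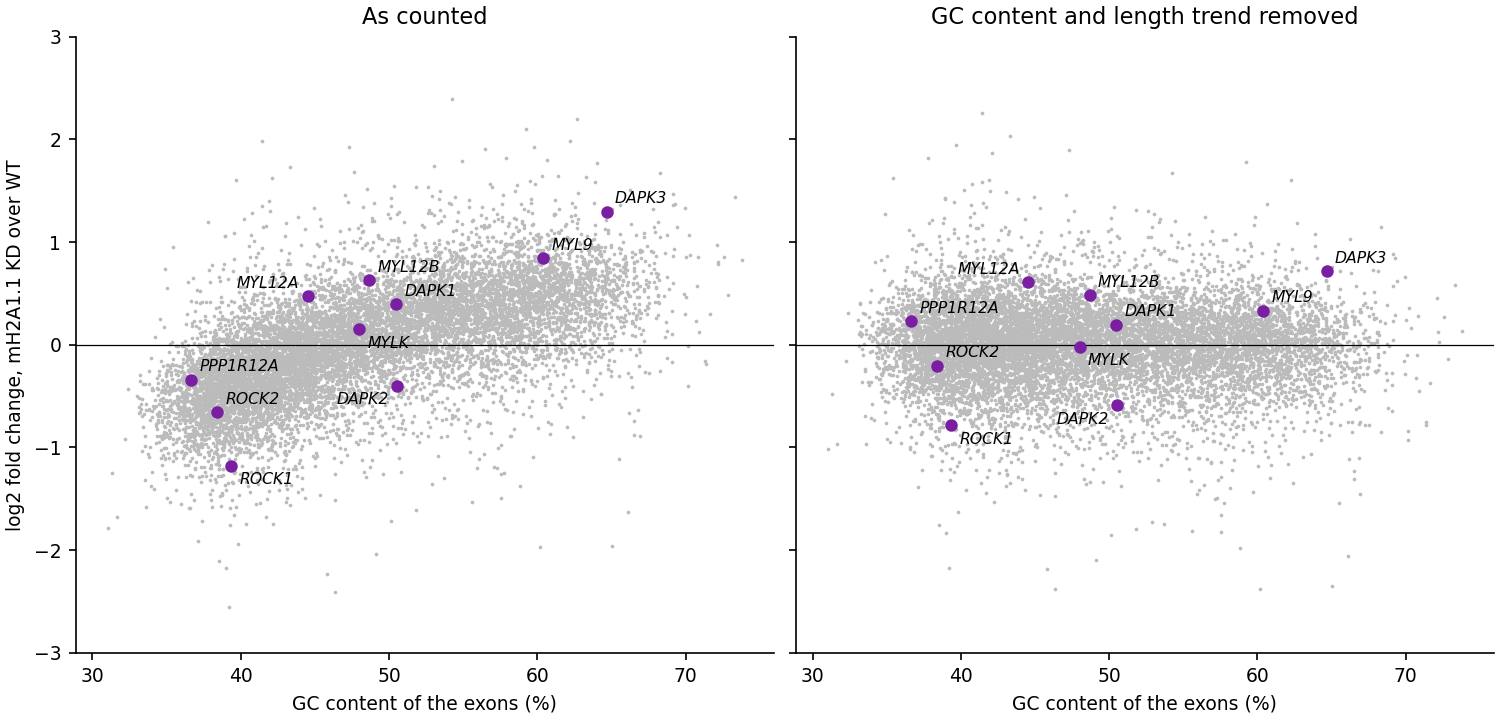
Log2 fold change of mH2A1.1 KD over WT against the GC content of the exons (%), for all tested genes with annotation (grey) and the 10 genes (purple), as counted (left) and with each library's trend with GC content and length removed (right). The grey cloud climbs from left to right before correction and is level after it, while DAPK3 goes from 1.30 to 0.71, ROCK1 from -1.18 to -0.78 and PPP1R12A from -0.34 to 0.23.

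Levels between genes were compared as CPM per kb of summed exons. In WT cells the light chains led, with MYL12B at 187 ± 12.5 (SD, n = 2), MYL12A at 80.3 ± 3.68 and MYL9 at 37.2 ± 2.52. ROCK2 followed at 24.0 ± 0.48, ROCK1 at 16.8 ± 0.62, PPP1R12A at 15.8 ± 0.27 and DAPK3 at 12.4 ± 0.0050. MYLK stood at 4.50 ± 0.029, DAPK1 at 1.75 ± 0.069 and DAPK2 at 0.402 ± 0.0027. No neighbours in this order overlapped between the WT libraries, but with the longest coding transcript as the length MYL12B and MYL12A overlapped, as did PPP1R12A and ROCK2. In both KD libraries DAPK3 ranked 4, above ROCK2, PPP1R12A and ROCK1, in place of 7 in both WT libraries. ROCK1 ranked 7 in both KD libraries in place of 5. These ranks depend on the length: with the whole gene from start to end DAPK3 ranked 4 in all 4 libraries, and with the longest coding transcript it again ranked 7 in WT and 4 in KD. ROCK1 ranked 6 in both WT libraries by either of these lengths. DAPK3 is in the highest class of exon GC content, and ROCK1, ROCK2 and PPP1R12A are in the lowest. The part of base composition in these ranks was not tested.

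Levels can also be given as shares of a family. DAPK3 made up 85.0% and 85.5% of DAP kinase CPM per kb in WT and 90.8% and 92.4% in KD. ROCK1 made up 41.5% and 40.9% of ROCK CPM per kb in WT and 31.6% and 34.8% in KD. Both KD libraries lay above both WT libraries in the DAPK3 share and below them in the ROCK1 share. The exons of ROCK1 and ROCK2 have 39.4% and 38.4% GC, and those of DAPK3 have 64.7% beside 50.5% for DAPK1 and DAPK2. The part of base composition in these shares was not tested. Among the light chains, MYL9 made up 12.2% and 12.3% in WT and 11.8% and 16.1% in KD, so the KD libraries fell on either side of WT. MYL12A held 26.7% and 26.1% in WT and 28.1% and 20.6% in KD, likewise on either side. With the longest coding transcript as the length, MYL12A held 45.3% and 44.5% in WT and 47.1% and 37.4% in KD, and MYL9 held 6.89% and 6.99% in WT and 6.61% and 9.77% in KD, so the light chain shares depend on the length used.

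**Figure D3:**
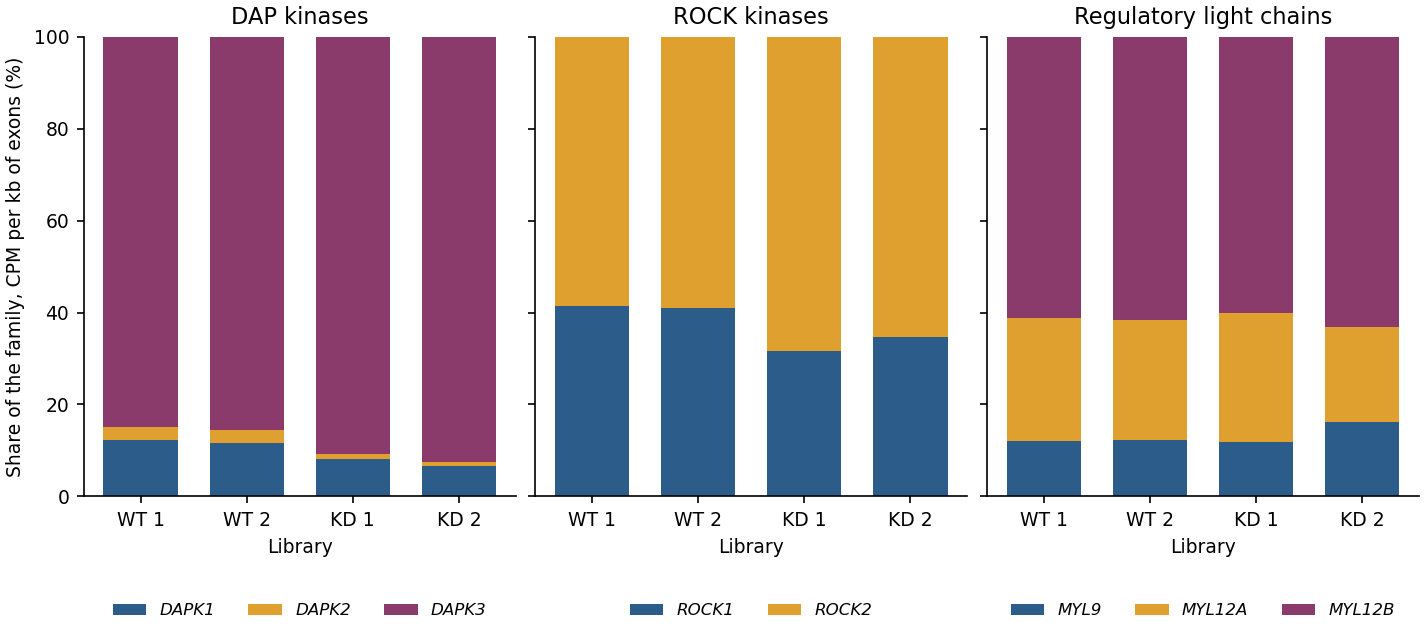
Share of each gene in its family (% of CPM per kb of exons) in each library, for the DAP kinases, the ROCK kinases and the regulatory light chains. DAPK3 takes 85.0% and 85.5% of its family in WT and 90.8% and 92.4% in KD, and ROCK1 takes 41.5% and 40.9% in WT and 31.6% and 34.8% in KD.

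Likeness to DAPK3 was measured as the root mean square difference of log2 CPM centred on each gene's mean over the 4 libraries, among 4768 genes with at least 100 counts in every library. Among the nearest were ZBTB47 at 0.059 and GSN at 0.064. GSN, which encodes the actin-severing protein gelsolin, had 144 and 144 CPM in WT and 249 and 444 in KD. ZBTB47, a zinc finger gene, had 20.5 and 22.9 CPM in WT and 35.1 and 73.2 in KD. Both share with DAPK3 a step from WT to KD replicate 1 and a larger one to KD replicate 2, which is what the measure seeks, and have GC contents of 61.1% for ZBTB47 and 53.0% for GSN. MYL9 was the closest of the other 9 genes, at place 202, and DAPK1 and DAPK2 did not reach the count minimum.

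Peaks were then placed at the genes. The lists hold 30687 mH2A1.1 peaks and 24222 total mH2A1 peaks on a grid of 3000 bp, and the 11849 mH2A1.1 peaks that share at least 1 bp with a total mH2A1 peak are called common. A common peak lay within 500 bp of the gene start of 2 of the 10 genes, MYLK and MYL9, which is 20.0% beside 26.2% of the 10943 annotated genes tested. Any mH2A1.1 peak lay there in 4 genes, with ROCK1 and MYL12A added, beside 46.9% of all genes. A total mH2A1 peak lay there in MYLK alone, beside 18.4% of all genes. The calls come from 1 library each, so the presence of a peak has no replicate check.

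The start of DAPK3 lay between peaks. A common peak of 66000 bp, chr19:3900001-3966000, entered the gene from its 3′ end and stopped 5123 bp downstream of the start, covering 59.8% of the gene body. A total mH2A1 peak of 3000 bp adjoined that peak and reached to 2123 bp from the start, and another common peak, of 15000 bp, began 6878 bp upstream. No stretch of the DAPK3 gene body was in both lists, because the large mH2A1.1 peak met the large total mH2A1 peak beyond the 3′ end of the gene. The start of DAPK3 itself was under no peak of either list, although 2 of its 7 annotated transcript starts, inside the gene, lay within 500 bp of a common peak.

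MYL9 was covered by mH2A1.1 over its whole length. The common peak chr20:36540001-36561000 spanned 100% of its gene body, of which 30.3% also lay in a total mH2A1 peak. At the start of MYLK, a peak of 3000 bp at chr3:123882001-123885000 was present in both lists, and 6 mH2A1.1 peaks in all touched the gene. ROCK1 had an mH2A1.1 peak without total mH2A1 across its start, chr18:21111001-21114000, and MYL12A had one at chr18:3246001-3249000. The nearest peak to the ROCK2 start was a common one 671 bp upstream, just outside the window. DAPK1 and DAPK2 had common peaks over 11.7% and 21.8% of the gene body and none at the start.

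For MYL12B the nearest mH2A1.1 peak to the start was that at the MYL12A start, 12479 bp away, and for PPP1R12A it was 36460 bp inside the gene. Over all annotated genes tested, 37.8% had any common peak in the gene body, the mean share covered was 16.7% and the median 0%. The 5 genes with any common peak in the body were DAPK1, DAPK2, DAPK3, MYLK and MYL9. Of the genes with any mH2A1.1 peak at the start, MYLK, MYL9 and MYL12A were higher in both KD libraries and ROCK1 was lower. Only MYLK and MYL9 had a common peak there. MYLK was higher by little, at 146 CPM in KD replicate 1 beside 143 and 141 in WT. With the GC content and length correction it was at -0.02 (SE 0.10), while MYL9, MYL12A and ROCK1 kept their direction. A link between peaks and the direction of the differences was not tested.

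**Figure D4:**
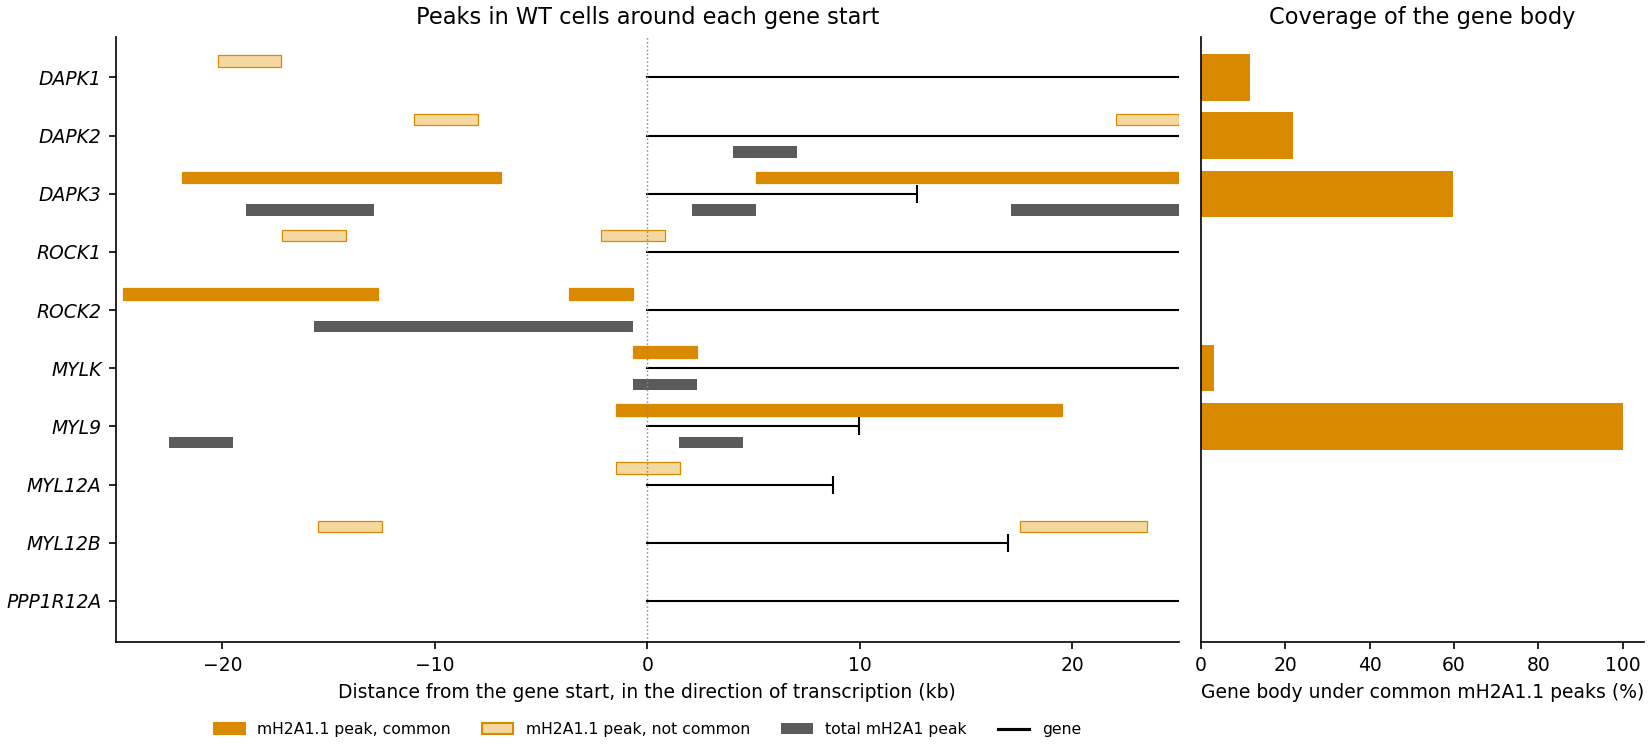
Left, mH2A1.1 peaks (orange, filled dark where common) and total mH2A1 peaks (grey) in WT cells by distance from the gene start (kb, in the direction of transcription), with the gene as a black line and its end ticked where it lies within 25 kb. Right, share of the gene body under common mH2A1.1 peaks (%), 100% for MYL9, 59.8% for DAPK3 and 0% for both ROCK genes, MYL12A, MYL12B and PPP1R12A.

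The other contractility genes were taken from lists of 74 genes by role, of which 57 were tested. MYH11 is not analysed here, and 5 genes, among them the main non-muscle myosin heavy chain gene MYH9, lie on the chromosomes left out. edgeR called 0 of the 57, with 20 (35.1%) at an unadjusted p under 0.05, beside 23.2% of all genes tested. Among the 52 with an adjusted p in DESeq2, 8 were called higher and 5 lower, beside 5.59% and 5.86% of all genes. The median log2 fold change was 0.25 beside 0.01 over all genes tested, and 0.03 after the GC content and length correction, when 1 was called higher and 4 lower, beside 2.17% and 3.17% of all genes. The lists were chosen with results known, so nothing is read from these counts. The 5 lower in DESeq2 were ECT2, STK17B, PAK2, PPP1CB and PPP1CC, and after the correction MYL6 was the higher one and RHOB, STK17B, MYLK4 and PPP1CC the lower ones, of which RHOB, STK17B, PAK2 and PPP1CB are named after their values were seen.

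The inputs, GTPases and their exchange factors that switch on ROCK, had a median of -0.02. RHOC had 55.4 and 64.7 CPM in WT and 93.1 and 129 in KD, a log2 fold change of 0.88 (SE 0.22), and the exchange factor ECT2 had 383 and 338 CPM in WT and 259 and 148 in KD, at -0.82 (SE 0.28). DESeq2 called RHOC higher and ECT2 lower. The other kinases had a median of -0.20, from CDC42BPB, an MRCK kinase that also acts on the light chain, at 0.39 (SE 0.20) to MYLK4 at -2.23 (SE 0.61). Under the correction CDC42BPB was at 0.06 (SE 0.10) and MYLK4 at -2.18 (SE 0.61). MYLK4 rests on 21, 13, 2 and 1 counts, a ratio of KD to WT of 0.204 (exact 95% counting interval 0.0400 to 0.648). STK17B, also known as DRAK2, a DAP kinase relative, had 145 and 122 CPM in WT and 53.3 and 34.5 in KD and was called lower by DESeq2 and by the corrected edgeR fit.

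In the phosphatase list, PPP1CC, a catalytic subunit of protein phosphatase 1, had 347 and 331 CPM in WT and 167 and 96.4 in KD, a log2 fold change of -1.35 (SE 0.27). DESeq2 and the corrected edgeR fit called it lower, while PPP1R14B, a phosphatase inhibitor, stood highest of the list at 0.52 (SE 0.20) with no call. In the corrected fit PPP1CC was at -1.03 (SE 0.14) and PPP1R14B at -0.06 (SE 0.15), so the direction of PPP1R14B depends on that choice. Among DAP kinase partners, DAP was at 0.36 (SE 0.19) and PAWR, which binds DAPK3, at -0.48 (SE 0.23), neither called. Their corrected values were 0.16 (SE 0.10) for DAP and 0.03 (SE 0.10) for PAWR. Among the myosin chains, MYL6, the essential light chain, had 159 and 154 CPM in WT and 226 and 436 in KD, at 1.07 (SE 0.31), and was called higher by DESeq2 and by the corrected edgeR fit. The heavy chain gene MYH10 was at -0.44 (SE 0.18), not called. After the correction MYL6 was at 0.83 (SE 0.21) and MYH10 at -0.48 (SE 0.11). CALM3 was at 0.72 (SE 0.24), called higher by DESeq2, and CALM2 at -0.48 (SE 0.19), not called, though both encode the same calmodulin protein. Corrected, CALM3 was at 0.32 (SE 0.11) and CALM2 at -0.13 (SE 0.11), neither called.

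LIM kinases, which phosphorylate cofilin, act downstream of ROCK, and stress fibres are bundles of actin filaments with myosin. Over all genes tested 50.6% had a log2 fold change above 0. In the LIM kinase and cofilin list 5 of 6 tested genes were above 0, led by CFL1, the actin-severing cofilin, at 0.86 (SE 0.26), called higher by DESeq2, with CFL2 lowest at -0.25 (SE 0.29). In the stress fibre list 12 of 14 were above 0, led by the actin gene ACTG1 at 0.90 (SE 0.30), also called higher by DESeq2, with TPM3 lowest at -0.38 (SE 0.18). After the correction 5 of 6 and 10 of 14 were above 0, neither list had a call, and the medians went from 0.39 to 0.28 and from 0.27 to 0.17. CFL1 was then at 0.53 (SE 0.14), CFL2 at 0.25 (SE 0.12), ACTG1 at 0.44 (SE 0.15), EZR at 0.21 (SE 0.11) and RDX at -0.18 (SE 0.10). Before it EZR and RDX, which link membranes to actin, were at 0.42 (SE 0.18) and -0.56 (SE 0.20). The smooth muscle forms TAGLN and ACTA2 were at 0.79 (SE 0.35) and 0.07 (SE 0.39), and none of these had a call. ACTN4 is listed at 0 in all 4 libraries.

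**Figure D5:**
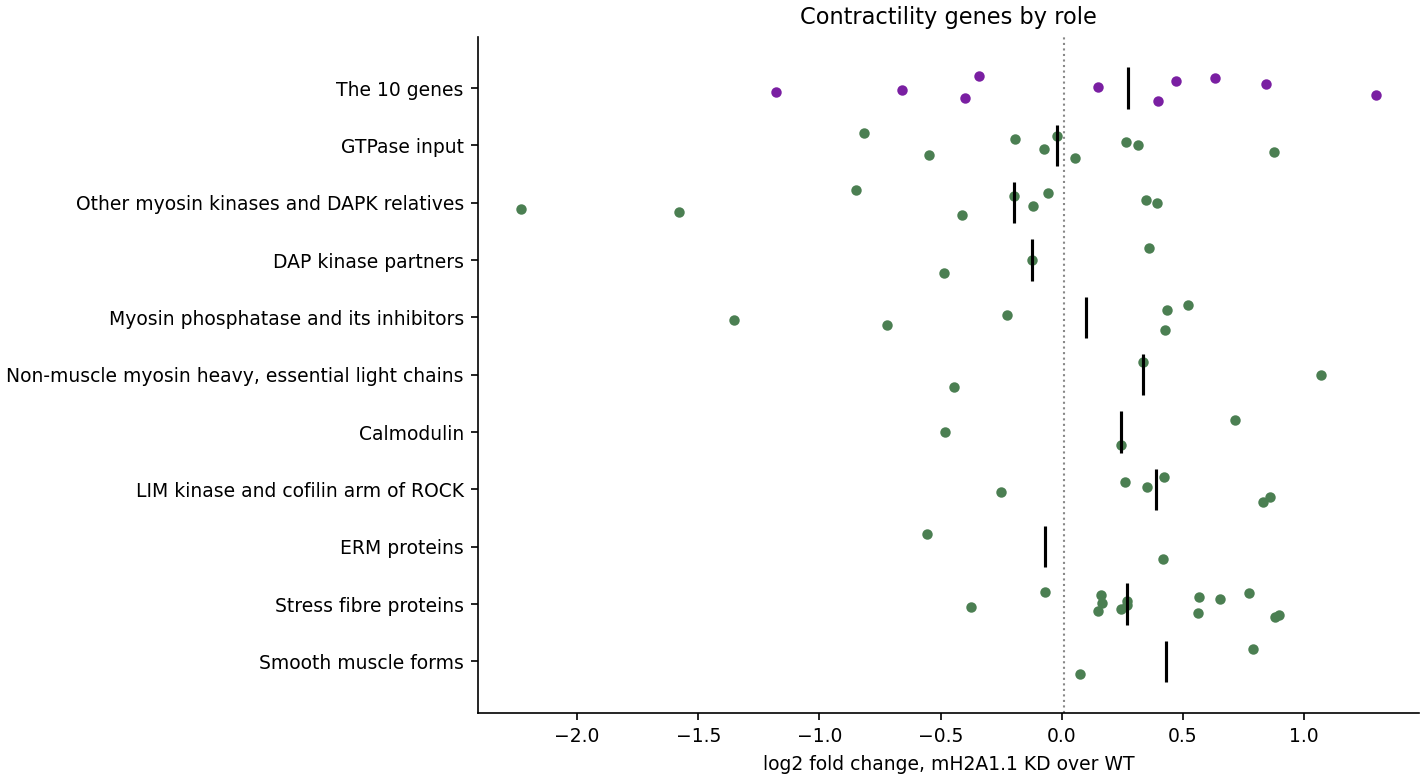
Log2 fold change of mH2A1.1 KD over WT for the 10 genes (purple) and for each tested gene of the contractility lists (green), 1 point per gene, with a black bar at the median of each row and a dotted line at the median of all tested genes, 0.01. The 10 genes spread from -1.18 for ROCK1 to 1.30 for DAPK3, and MYLK4 at -2.23 and STK17B at -1.58 are the lowest points.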

How the data were processed

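RNA-seq counts per gene of 2 WT and 2 mH2A1.1 KD libraries and peak positions of 2 ChIP-seq libraries of WT cells were used. The input and 4 promoter capture samples are not analysed here. The deposited counts were made by the authors from strand-specific total RNA reads, aligned with STAR 2.5.1 (version per the submitters' processing notes) to hg38. The authors dropped reads of low mapping quality and duplicates, then used htseq-count with its default options. Removing duplicates without molecular identifiers can lower dense, short genes such as the light chains, and reads shared between near-identical genes may be lost, neither of which was measured here. The annotation is not given in the sources used here. The authors called peaks with normR against the input, separately for each library with parameters set for each, and the deposited score of every peak is 0, so no stricter score could be applied.

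Genes were matched to GENCODE release 44. Counts outside chromosomes 21, 22 and X entered edgeR 4.0.16, run in R 4.3.3 (TMM, its filter on low counts, quasi-likelihood test, Benjamini-Hochberg adjustment), and CPM were scaled by the TMM factors (1.04, 1.04, 1.02 and 0.918). Standard errors were taken from the F statistic. DESeq2 1.42.0, the tool of the study, and other choices were alternatives. DESeq2 without the filter on low counts, whose calls the text gives, was chosen after seeing the data, and DESeq2 was also run on the genes edgeR tested. The test was checked on simulated counts, drawn with a shared dispersion in all libraries and no trend with GC content. That check therefore does not cover the GC trend or the wider spread of the KD libraries seen here. Gene bodies ran from 50 bp after the start to the gene end. Labelled replicate numbers were not treated as pairs.

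The members and lists were chosen with earlier results of these data known. Named are all 10 genes, MACROH2A1, from each list the tested genes with the largest and the smallest log2 fold change (the rule when fewer than 2 are called), and the 3 genes most like DAPK3, of which 1 is not reported here. Genes called by DESeq2 are named outside this rule where said. Other settings are given in the closing section.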

Additional observations from a re-analysis of the deposited data

How the results depend on the processing

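The number of calls depended on the setting. edgeR with DESeq2 size factors, or with chromosomes 21, 22 and X kept, also gave 0 calls. With no filter on low counts, 2139 of 15068 genes were called, against 0 before. Among them were 5 of the 10 genes and 15 of the contractility genes. DESeq2 without that filter called 875 of the 7642 genes with an adjusted p, with 3 of the 10 genes and 13 contractility genes. On the genes edgeR tested DESeq2 called 928 of 7987, with 3 and 13 such genes. With chromosomes 21, 22 and X kept, DESeq2 called 950 of 9420, with 2 and 8. The GC content and length correction gave 585 of 10963, with 3 and 5, and DESeq2 with that correction 449 of 8200, with 3 and 4. Nothing is read from these counts of chosen genes. Leaving out 1 library in turn gave 2 to 4744 genes, 0 to 6 of the 10 genes and 0 to 28 contractility genes, the highest counts without KD replicate 1, where the lone KD library is assumed to vary like WT. The log2 fold change of DAPK3 stayed above 0 in every setting run. As a description, it was 1.27 with no filter, 1.29 in DESeq2 without the filter, 1.31 in DESeq2 on the genes edgeR tested, 1.29 in DESeq2 with those chromosomes, 0.71 with the correction and 0.72 in DESeq2 with it, and ran from 0.73 to 1.73 with 1 library left out. Under the correction PPP1R12A turned to 0.23 (0.24 in DESeq2) and MYLK to -0.0188 (-0.0182 in DESeq2). DAPK2 lay between -0.69 and 0.0366 with 1 library left out, above 0 without KD replicate 1. The cause was not tested. Depth limits DAPK2 most, at 12 counts in KD replicate 2.

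With the replicate number as a block, edgeR called 2208 of 10963 genes, 5 of the 10 and 15 contractility genes, with DAPK3 at 1.23. With the block and the correction it called 813 of 10963, with 3 and 5 such genes. DAPK3 was then at 0.71, MYLK at -0.0181 and PPP1R12A at 0.24. Deviations of same-numbered libraries correlated at 0.25, and with 2 numbers the samples share only a number.

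The number of genes with a peak at the start was 4 with all mH2A1.1 peaks, beside 46.9% of all genes. It was 1 with stretches in both lists (13.8% of all genes) and 1 with total mH2A1 peaks (18.4%). With peaks lying mostly inside total mH2A1 peaks it was 1 (16.3%). Common peaks gave 3 within 1000 or 3000 bp of the start and 4 at any transcript start, of which MYLK has 52. Shares over all genes are not given for these last settings. Of the 10 places in the order by level, 4 were unchanged with the whole gene length and 7 with the longest coding transcript.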
